A study of Homo sapiens with 54 samples.

Results

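PC3 is a cell line grown from a bone metastasis of a prostate cancer. The cells compared here outlived cisplatin, a platinum drug whose adducts link bases of DNA, and were collected 10 days after the drug was removed. Their reference was untreated PC3 cells. Each group had 3 biological replicates, and each replicate was split into 3 portions before tagmentation. That makes 18 of the 54 sequenced samples of the series, and 6 of its 18 peak lists. The 6 lists were chosen by cell line, treatment and time alone, and each list stands for a single biological replicate (n = 3 lists in each group). The remaining samples are PC3 survivors 1 day after removal and the same 3 states of MDA-MB-231, a breast cancer line. The labels give neither the cisplatin dose nor the exposure time, and they do not say whether replicates were treated as separate cultures. All survivors come from 1 cell line, and the title of the series describes such cells as polyploid. A p-value below measures only the spread between peak lists, which in the tests by gene is that of all 18 lists.

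The assay, ATAC-seq, uses a transposase that cuts and tags DNA not held by nucleosomes, so a peak marks accessible chromatin. Promoters of active genes are accessible in most cell types, while enhancers, which lie mostly far from promoters, differ between cell states. The crosslinks that cisplatin forms are removed by nucleotide excision repair and by the Fanconi anaemia and recombination pathways. PC3 lacks functional p53 and does not respond to androgen. The lists hold peaks but no read counts, so the depth behind them is unknown.

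Lengths at marker genes are given for the PC3 lists only, so whether these genes separate PC3 from MDA-MB-231 was not tested. All 13 set for PC3, which include the keratin genes KRT8 and KRT18, had covered length in both groups, but so had the 10 set for MDA-MB-231, of which CAV1 and CD44 stand in both sets. The summed length of the MDA-MB-231 set ran from 69.7 to 75.1 kb at day 10, against 71.0 to 78.1 kb in untreated cells. The window of KRT8 had 13.5, 12.2 and 13.6 kb under peaks at day 10, against 12.6, 11.5 and 13.7 kb in untreated cells. Haemoglobin gene HBB had 0 in all 6 lists. PTPRC, the leukocyte marker CD45, had 0 in the 3 day 10 lists and from 0.355 to 0.416 kb in untreated cells.

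Day 10 survivors carried more peaks than untreated cells, and their peaks lay less often at gene ends. The 3 day 10 lists held 165535, 150913 and 133898 peaks, against 114731, 113631 and 106577 in untreated cells. Every day 10 list was longer than every control list, a difference of 0.42 on the log2 scale. These peaks covered 69.8, 80.9 and 82.3 Mb at day 10, against 67.0, 66.4 and 62.1 Mb in untreated cells. The groups did not overlap here either, with a log2 difference of 0.25. With each list held to its 50000 highest peaks, that difference was -0.073. A gene end (1 kb on either side of the first or last base of a protein-coding gene) held 11.2%, 11.1% and 12.94% of day 10 peaks, against 13.2%, 12.95% and 13.5% of control peaks, so the groups were only just apart. Peaks outside genes and gene ends made up 47.6%, 47.9% and 46.5% of the day 10 lists, against 44.9%, 45.1% and 44.4% of the control lists. These 4 measures had a two-sided exact permutation p of 0.1, the smallest that 3 lists against 3 can give, so none could pass 0.05.

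The day 10 lists also differed among themselves. Median peak width was 320, 421 and 480 bp at day 10, against 435, 455 and 429 bp in untreated cells. Day 10 replicate 1 had the most and the narrowest peaks, and the groups overlapped (difference -32.7 bp, exact permutation p = 0.7). Without that replicate the difference was 10.8 bp. Of the length covered by either list of a pair, 63.9% to 71.1% was covered by both in pairs of day 10 lists, 73.3% to 78.1% in pairs of control lists and 54.6% to 60.4% in pairs of 1 list from each group. Each pair within a group was thus closer than any pair across groups.

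**Figure D1:**
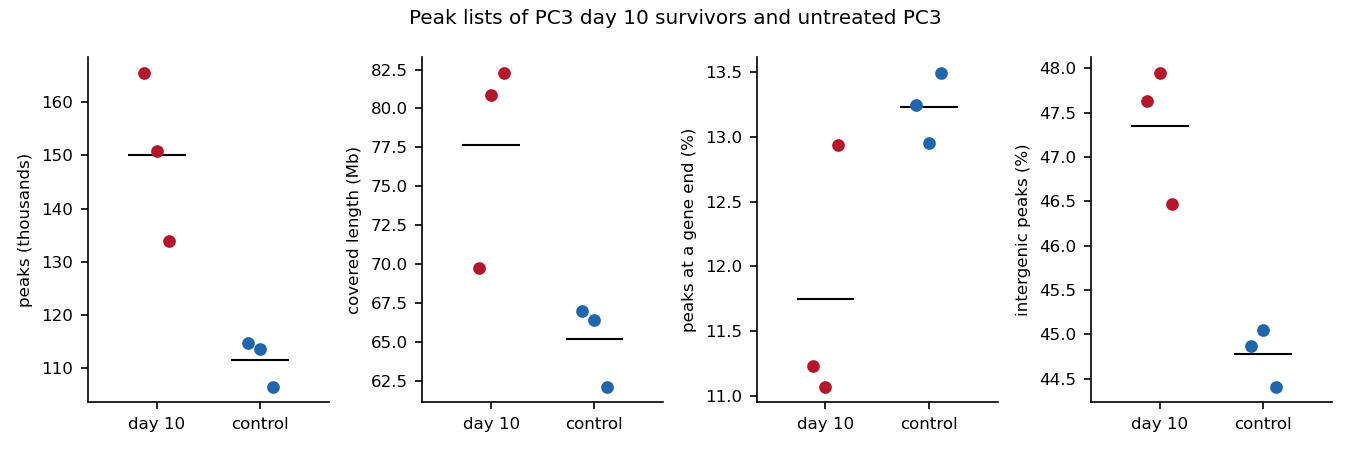
Each point is 1 peak list of PC3, with day 10 survivors left of untreated cells, and the bar is the group mean. Panels give the number of peaks, the covered length in Mb, the share of peaks at gene ends and the share between genes in percent; the groups do not overlap in these.

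At promoters the balance ran towards loss. Promoter windows run from 250 bases before to 50 after a start site in RefSeq (GRCh38.p14), and 22132 windows of 15812 genes were read. Windows on chromosome 8 were not analysed here. A peak lay in 57.1%, 57.2% and 56.4% of them at day 10, against 59.2%, 57.9% and 57.9% in untreated cells. With 50000 peaks per list the shares were 43.3%, 45.8% and 44.6% at day 10 and 53.5%, 52.2% and 53.2% in untreated cells, so the control lists were higher in both settings. A window was called gained when all 3 day 10 lists and no control list had a peak in it, and lost in the opposite case. Gained windows numbered 130 (0.587% of windows) and lost windows 236 (1.07%). With 50000 peaks per list 51 were gained (0.23%) and 998 lost (4.51%). A strict call asked for a peak among the 50000 highest in every list of one group and for none in the whole lists of the other. It kept 8 gained windows (0.0361%), of 7 genes, and 62 lost windows (0.28%), of 56 genes.

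Strictly gained windows belonged to CYP4F11, PDZK1IP1, FCRLA, FSCN3, FRMPD1, GCKR and LGALS9. Of the 8 windows 7 had no control peak within 1000 bp in any list, so they lay apart from the sites of untreated cells. Of the 62 strictly lost windows, 45 had a day 10 peak within 1000 bp in all 3 lists and 5 had one in none. Most strictly lost windows therefore lay beside a site still accessible at day 10.

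The sequences of 6 windows are shown as examples of the difference in median base composition between gained and lost promoters, and were picked with their values known. They are RefSeq sequences, written 5′ to 3′ on the strand of the gene. Capitals mark matches, on either strand, to motifs searched: AP-1 (TGANTCA), SP/KLF (GGGCGG), NF-Y (CCAAT), forkhead (TGTTTAC), NF-kB-like (GGANTTTCC) and antioxidant-response-like (TGACNNNGC). TEAD (GGAATG), ETS (CCGGAAG), E-box (CACGTG) and CRE (TGACGTCA) motifs were searched too and had no match in these 6 windows. The gained windows are those of CYP4F11, which encodes a fatty acid hydroxylase of the cytochrome P450 family (chr19:15934480-15934779, minus strand), PDZK1IP1, which encodes a small membrane protein that binds the scaffold PDZK1 (chr1:47189987-47190286, minus strand), and GCKR, the glucokinase regulator (chr2:27496589-27496888, plus strand).
CYP4F11: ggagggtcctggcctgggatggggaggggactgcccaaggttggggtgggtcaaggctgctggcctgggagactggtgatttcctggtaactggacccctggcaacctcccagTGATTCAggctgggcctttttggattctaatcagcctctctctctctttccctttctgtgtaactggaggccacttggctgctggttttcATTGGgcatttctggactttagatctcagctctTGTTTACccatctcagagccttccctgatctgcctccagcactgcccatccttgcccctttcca
PDZK1IP1: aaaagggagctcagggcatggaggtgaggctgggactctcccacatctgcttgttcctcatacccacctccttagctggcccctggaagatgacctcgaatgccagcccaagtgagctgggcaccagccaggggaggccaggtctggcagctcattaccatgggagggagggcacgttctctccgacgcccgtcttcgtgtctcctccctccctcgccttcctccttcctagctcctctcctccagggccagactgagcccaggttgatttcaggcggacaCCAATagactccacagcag
GCKR: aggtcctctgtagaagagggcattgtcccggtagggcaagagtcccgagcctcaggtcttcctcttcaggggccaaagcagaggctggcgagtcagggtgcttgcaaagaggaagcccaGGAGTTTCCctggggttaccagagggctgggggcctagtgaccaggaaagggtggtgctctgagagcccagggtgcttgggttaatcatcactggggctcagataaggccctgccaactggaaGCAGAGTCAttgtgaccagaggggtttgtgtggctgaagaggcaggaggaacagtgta
The lost windows are those of MCIDAS, a regulator of multiciliated cell formation (chr5:55227266-55227565, minus strand), PDGFA, a platelet-derived growth factor (chr7:519797-520096, minus strand), and AMD1, which makes decarboxylated S-adenosylmethionine for polyamine synthesis (chr6:110814367-110814666, plus strand).
MCIDAS: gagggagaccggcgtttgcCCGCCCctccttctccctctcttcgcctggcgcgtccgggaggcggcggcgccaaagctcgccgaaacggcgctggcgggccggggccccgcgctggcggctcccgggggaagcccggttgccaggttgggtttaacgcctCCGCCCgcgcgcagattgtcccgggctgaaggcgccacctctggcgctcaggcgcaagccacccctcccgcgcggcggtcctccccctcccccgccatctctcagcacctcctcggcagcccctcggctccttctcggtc
PDGFA: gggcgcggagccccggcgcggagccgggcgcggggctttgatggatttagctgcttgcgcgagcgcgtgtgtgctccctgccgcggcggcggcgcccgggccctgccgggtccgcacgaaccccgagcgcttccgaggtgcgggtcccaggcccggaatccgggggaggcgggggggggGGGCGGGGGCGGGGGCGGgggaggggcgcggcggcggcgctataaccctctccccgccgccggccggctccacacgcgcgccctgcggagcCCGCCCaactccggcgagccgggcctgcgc
AMD1: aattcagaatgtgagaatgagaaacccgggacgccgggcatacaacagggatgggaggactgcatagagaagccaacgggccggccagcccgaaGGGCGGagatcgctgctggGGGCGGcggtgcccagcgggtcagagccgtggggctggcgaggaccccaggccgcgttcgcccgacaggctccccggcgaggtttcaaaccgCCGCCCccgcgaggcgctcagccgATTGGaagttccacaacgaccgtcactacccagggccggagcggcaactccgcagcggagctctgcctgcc

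The gained examples hold few CpG pairs and the lost ones many. CYP4F11 has 0 CpG, PDZK1IP1 has 8 and GCKR has 3, whereas MCIDAS has 38, PDGFA 49 and AMD1 31. The CYP4F11 window holds 1 AP-1 match, and its nearest control peaks lay 60236, 60238 and 60236 bp away. Its day 10 peaks ranked 26166, 18428 and 14868 in their lists, where rank 1 is the highest score. PDZK1IP1 peaks ranked 12653, 11424 and 18106 at day 10, with the nearest control peaks from 2492 to 2506 bp away. The MCIDAS window ranked 20080, 40543 and 20154 in untreated cells, and the nearest day 10 peaks lay 496, 4849 and 4686 bp away. At PDGFA they lay 424, 473 and 476 bp away, and at AMD1 269, 129 and 274 bp.

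Medians over all gained and lost windows differed the same way, though single windows did not all follow. The strictly lost window of RTN4, for one, has 39.3% G+C and 7 CpG. The median G+C content was 51.3% in the 130 gained windows, 72.2% in the 236 lost windows, 66% in windows with a peak in all 6 lists and 62.3% in all windows. Gained windows had a median of 4 CpG, lost windows 33, windows in all 6 lists 27 and all windows 21. By definition gained windows had no peak in untreated cells. Windows with a peak in none of the 6 lists had medians of 55% G+C and 7 CpG, nearer to gained windows. An AP-1 match was in 19.2% of gained windows, 4.66% of lost windows and 6.15% of all windows. TEAD matches (GGAATG) were in 18.5% of gained, 11.0% of lost and 12.2% of all windows, and NF-kB-like matches in 5.38%, 1.27% and 1.61%. SP/KLF matches, whose letters overlap CpG-rich sequence, went the other way, with 16.2% of gained, 72.5% of lost and 56.3% of all windows. The share among windows with a peak in all 6 lists was 72.3%, so lost windows were near other windows open in untreated cells in this. Windows with a peak in none of the 6 lists had AP-1 matches in 6.78%, TEAD in 14.2%, NF-kB-like in 1.41% and SP/KLF in 34.6%. ETS matches were in 3.85% of gained, 12.3% of lost and 12.8% of all windows, and E-box matches in 3.85%, 11.0% and 8.34%. CRE matches were in 0.769%, 0.424% and 2.26%. For NF-Y the shares were 37.7%, 17.8% and 34.6%, for antioxidant-response-like 15.4%, 12.7% and 13.8%, and for forkhead 3.85%, 2.97% and 2.85%. A match is a run of letters and says nothing of binding.

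Across the genome, gained sites outnumbered lost ones with whole lists. Peaks of PC3 were merged into regions, and the 6 lists compared had peaks in 183617 of them. All 6 lists shared 79218 regions. Day 10 survivors gained 20244 regions (11% of regions) and lost 2583 (1.41%), by the same definition as for promoters. At 50000 peaks per list, which equalises list length, 4199 were gained (5.95%) and 4221 lost (5.98%) of 70539. The excess of gains was not present there, and setting all lists to 1 length keeps both counts near balance by construction. Under the strict call 896 regions were gained (0.488%) and 22 lost (0.012%). That call asks for absence from whole lists, which are shorter in untreated cells, and with absence read from 100000 peaks per list it gave 1118 gained and 243 lost. With 1 list left out, which loosens the rule, strictly gained regions numbered between 1037 and 1199. Lost regions then numbered 3879 without day 10 replicate 1, 4334 without day 10 replicate 2 and 4234 without control replicate 3. Strictly lost regions numbered 89 without day 10 replicate 2 and 36, 37 and 50 without control replicates 1, 2 and 3.

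Gained regions lay at gene ends less often than all regions. A gene end was touched by 4.24% of gained, 8.36% of lost and 9.70% of all regions, against 16.0% of the regions in all 6 lists. Between genes lay 55.1% of gained, 38.6% of lost and 48.2% of all regions. Strictly gained regions had a like placement, with 4.69% at gene ends and 55.7% between genes. Gained regions were mostly not the strongest sites. Their median rank was 95770, 95286 and 94234 in the 3 day 10 lists, past the middle of each list, while strictly gained regions had median ranks from 31232 to 32564. Gained regions had a median width of 430 bp and strictly gained ones 752 bp, against 743 bp for the regions in all 6 lists.

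Part of the gained sites were already open 1 day after drug removal. Of the gained regions 28.5% had a peak in all 3 day 1 lists and 23.3% in none of them, against 57.5% and 19.3% of all regions. Among the strictly gained regions 63.2% had a peak in all 3 day 1 lists and 4.58% in none. Of the strictly lost regions 77.3% still had a peak in all 3 day 1 lists. These were 17 of 22 regions.

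The strictly gained regions named here were taken from the widest, and the strict call itself asks for high peaks. The widest, of 4258 bp, lies between genes on the short arm of chromosome 18 (chr18:14170959-14175216) and ranked 9420, 27722 and 1910 at day 10. A region of 4093 bp lies in ZCCHC24, a zinc finger gene (chr10:79416171-79420263). Next came a region at an end of TNNI1, which encodes slow skeletal muscle troponin I (chr1:201419196-201423015). It had peaks in all 3 day 1 lists and in no day 10 or control list of MDA-MB-231. A region of 3469 bp overlaps QRICH2 and lies at an end of UBALD2 (chr17:76271664-76275132), and a region of 3265 bp beside WNT9A, a Wnt ligand gene (chr1:227915015-227918279), ranked 15384, 10233 and 1571 at day 10. AMOTL2, which binds the Hippo pathway effector YAP (chr3:134353175-134355723), and LCN2, the siderophore-binding lipocalin 2 (chr9:128152306-128154328), also had such a region at an end. The region at LAMB3, a laminin subunit gene, and CAMK1G (chr1:209612635-209614485) ranked 35429, 19444 and 15279 at day 10. None of these regions had a peak in any control list of PC3.

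The 22 strictly lost regions had a median width of 697.5 bp, against 752 bp for the strictly gained ones. The widest lies at GATD1 (chr11:776586-778175, 1590 bp) and ranked 41457, 48876 and 28932 in untreated cells. Others lie at ZNF747 (chr16:30534034-30535522), at the shared start region of THOC7, an mRNA export gene, and ATXN7 (chr3:63862782-63863977), and at KRT10 (chr17:40818745-40819242). The third widest (chr10:22340248-22341665) lies within 10 kb of BMI1, a Polycomb gene.

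**Figure D2:**
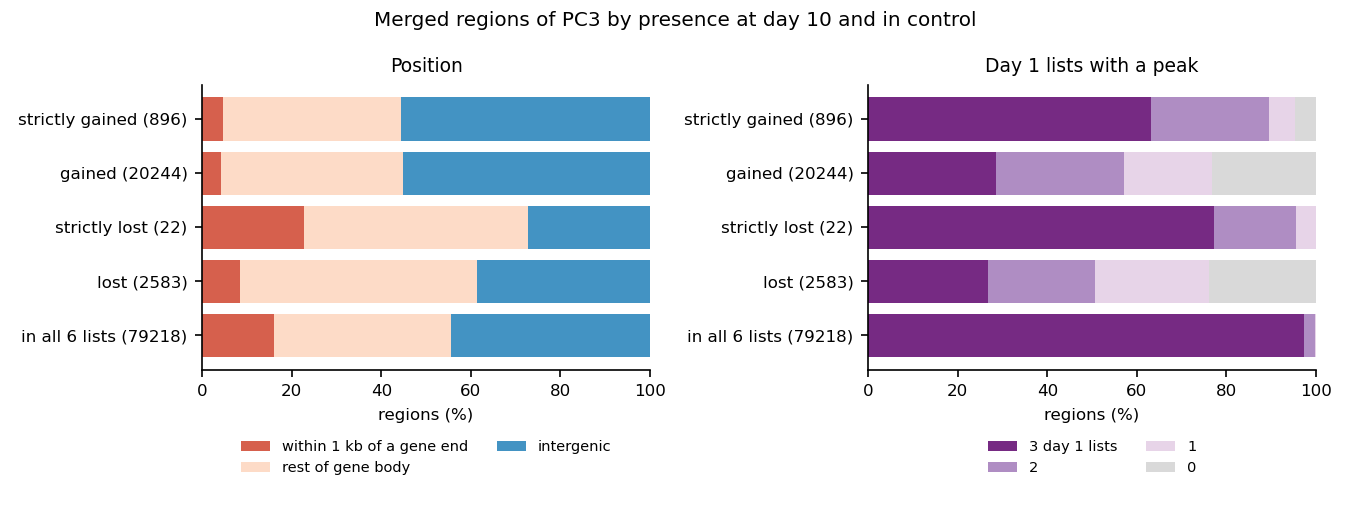
Shares in percent of regions gained, lost, strictly gained, strictly lost and shared by all 6 PC3 lists that touch a gene end or lie between genes, and shares by the number of day 1 lists with a peak, with the number of regions in brackets. Gained regions touch gene ends in 4.24% and regions shared by all 6 lists in 16.0%.

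The chromosome arms took unequal parts in this. The share of covered length on an arm was higher in every day 10 list than in every control list for 9 of 41 arms (22%) and lower for 16 (39%). The short arm of chromosome 18 had a log2 ratio of day 10 to control of 0.30, arm 20q 0.21, arm 11q 0.19 and arm 8q 0.15. The long arm of chromosome 18 had -0.39, and -0.78 with 50000 peaks per list. Arms 6q, 19p and 9p had -0.20 each. Both arms of chromosome 18 thus lay at opposite ends. Of the regions on 18p 16.9% were gained, against 5.36% on 18q. The number of copies of a region in the population and its openness per copy cannot be told apart in these lists, and this bears on all results by gene below.

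**Figure D3:**
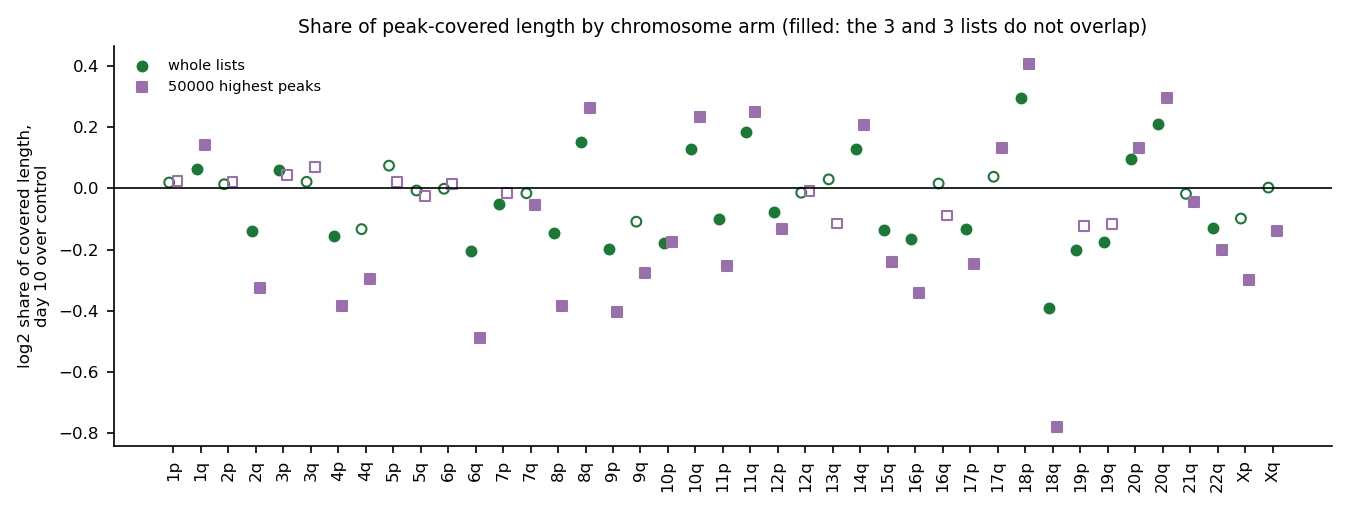
The log2 ratio of day 10 to control share of covered length for each of the 41 chromosome arms, with whole lists (circles) and with 50000 peaks per list (squares), filled where the 3 day 10 and 3 control lists do not overlap. Arm 18p has 0.30 and 18q -0.39 with whole lists.

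Per gene, accessibility was measured as the length under peaks in a window that runs from 10 kb before the gene to 10 kb after it. Each list was scaled so that its total covered length equalled the mean of all lists. Values in kb below are on that scale, windows of neighbouring genes share peaks, and changes are differences of log2(length + 500 bp), which understate low genes. Of 16816 genes tested with limma at a Benjamini-Hochberg adjusted p of 0.05, 1981 were higher (11.8%) and 5566 lower (33.1%) at day 10, with a median change of -0.16. The split depended on the scaling. With no scaling 2819 were higher (16.8%) and 1188 lower (7.06%), with a median of 0.05. With median-of-ratios scaling 3423 were higher (20.3%) and 2518 lower (15%), with a median of 0.00. With 50000 peaks per list 1399 were higher (8.77%) and 3299 lower (20.7%), with a median of -0.09. Genes called alike in all 4 settings numbered 759 higher and 857 lower. Changes below are set against the median of all genes where lists are described.

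Long genes rose more often than short ones. Among genes with a body under 30 kb 10.1% were higher, from 300 to 1000 kb 25.8%, and from 1000 kb 36.2%. The same shares were 8.11%, 17.5% and 24.2% with 50000 peaks per list. Lower genes were 31.9%, 23.9% and 10.1% of the same 3 classes with whole lists, but 18.5%, 21.6% and 24.2% with 50000 peaks per list, where the longest class had as many lower as higher genes and a median of -0.04. Longer windows hold more regions, and 11.2% of the regions in bodies of 300 to 1000 kb and 15.1% in bodies from 1000 kb were gained, against 7.16% in bodies under 30 kb.

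The largest rises were mostly in long genes, several of them of cell adhesion, with little length under peaks in untreated cells. The 10 named here and the 10 falls after them are the largest that held with whole lists and with 50000 peaks, with groups apart in both, a rule that 652 genes met as higher (4.09%) and 2158 as lower (13.5%). OPCML, a neural cell adhesion gene (chr11:132414981-133532501), had 19.6, 12.3 and 23.3 kb at day 10, against 0.731, 0.231 and 0.428 kb in untreated cells. Of the 67 regions in its body 30 were gained, none was lost and 1 was in all 6 lists. Its log2 change was 4.28 (SE 0.20, limma adjusted p = 8.3e-10). At day 1 the gene had 2.48, 2.05 and 2.57 kb, between both groups. PTPRT, a receptor tyrosine phosphatase gene (chr20:42031890-43189906), had 10.9, 6.15 and 13.9 kb at day 10, against 1.20, 0.438 and 0 kb in untreated cells. It rose by 3.47 (SE 0.32, limma adjusted p = 9.6e-07). NCAM1, the neural cell adhesion molecule that is also a neuroendocrine marker (chr11:112961420-113278436), had 7.02, 5.44 and 8.48 kb at day 10, against 0.445, 0.363 and 0 kb in untreated cells. Each day 10 list was many times above each control list, and the change was 3.31 (SE 0.34, limma adjusted p = 2.5e-06). Replicate 2 had the lowest day 10 value in all 3 of these genes.

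The other 7 rises were of a like kind. FAM135B rose by 3.42 and COL22A1, a collagen gene of tissue junctions, by 3.00. COL22A1 had 21.4, 14.5 and 28.2 kb at day 10, against 3.63, 1.51 and 1.74 kb in untreated cells. GALNT17, of the enzyme family that starts O-linked glycans, rose by 2.78, ANO2, a calcium-activated chloride channel gene, by 2.72, and CLSTN2, a synaptic adhesion gene of the calsyntenins, by 2.71. RBFOX1, a neuronal splicing regulator, had 6.18, 3.29 and 6.11 kb at day 10, against 0.388, 0.335 and 0.314 kb in untreated cells (2.71). CST7, a cysteine protease inhibitor of leukocytes (chr20:24949269-24959928), was the short gene among them. It had 3.53, 4.39 and 4.61 kb at day 10, against 1.01, 0 and 0 kb in untreated cells, a log2 change of 2.68. Its day 1 values of 3.26, 4.49 and 4.24 kb already lay in the day 10 range, unlike those of OPCML.

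Counting gained regions gave an overlapping set, named after the counts were seen. Gained regions add day 10 length to the windows of these genes, so their direction is partly set by this choice. Of all regions in bodies of 300 to 1000 kb 11.2% were gained, and 15.1% in bodies from 1000 kb. NRXN3, a presynaptic adhesion gene, held the most, 41 of 127 regions in its body. It had 43.3, 43.1 and 49.5 kb at day 10, against 23.5, 24.8 and 25.9 kb in untreated cells, and rose by 0.86. NTM, which encodes neurotrimin, a neighbour and relative of OPCML, gained 30 of 85 and rose by 1.72. LDLRAD4, which restrains TGF-beta signalling, gained 25 of 62 and rose by 2.42. DAB1, the adaptor of reelin signalling, gained 23 of 53 and rose by 1.94. CDH13, a cadherin without a cytoplasmic tail, gained 21 of 47 and rose by 1.84. KCNMA1, a potassium channel gene, gained 28 of 169, yet its total was 85.6, 96.1 and 109 kb at day 10 against 76.7, 86.7 and 86.3 kb in untreated cells. Its groups overlapped, and its change of 0.22 did not pass (adjusted p = 0.064). Other genes with like counts changed less than most of those above. DLG2 gained 25 of 126 and changed by 0.49, and TENM4 gained 23 of 108 and changed by 0.43. LRMDA gained 23 of 154 and changed by 0.36, and GPHN gained 21 of 100 and changed by 0.05.

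The largest falls were smaller on the log2 scale than the largest rises. BMI1, a subunit of Polycomb repressive complex 1 (chr10:22321099-22331706), had 0.841, 0.702 and 0.667 kb at day 10, against 3.70, 3.87 and 4.54 kb in untreated cells. The change was -1.87 (SE 0.14, limma adjusted p = 8e-08) and -1.56 relative to the median of its arm, 10p. Day 1 values of 1.54, 2.78 and 2.32 kb lay between both groups. FST, the activin inhibitor follistatin (chr5:53480629-53487134), had 0.018, 0.656 and 0.983 kb at day 10, against 2.61, 2.26 and 2.52 kb in untreated cells, a change of -1.62. PDGFA had 0.472, 0.383 and 0.331 kb at day 10, against 2.00, 2.47 and 1.97 kb in untreated cells (-1.56). Its promoter is printed above and was strictly lost. MCIDAS, whose promoter was strictly lost too, had 1.45, 1.24 and 0.761 kb at day 10, against 4.14, 4.06 and 4.02 kb in untreated cells (-1.49).

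RNF4, a ubiquitin ligase that targets SUMO-modified proteins (chr4:2469106-2515857), had 0.765, 0.490 and 0.274 kb at day 10, against 2.61, 1.92 and 2.65 kb in untreated cells (-1.54). GAMT, which makes creatine, fell by 1.52, ZFP30, a zinc finger gene, by 1.51, and LOC105375947 by 1.73. RASAL2, a Ras GTPase-activating protein gene, had 1.58, 2.16 and 0.932 kb at day 10, against 4.49, 4.82 and 4.79 kb in untreated cells (-1.38). DYM, a gene of Golgi organisation on 18q, had 2.22, 1.31 and 0.327 kb at day 10, against 3.77, 4.33 and 3.09 kb in untreated cells. It fell by 1.39, and by 0.92 relative to the median of its arm. In each of these genes all 3 day 10 lists lay below all 3 control lists.

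**Figure D4:**
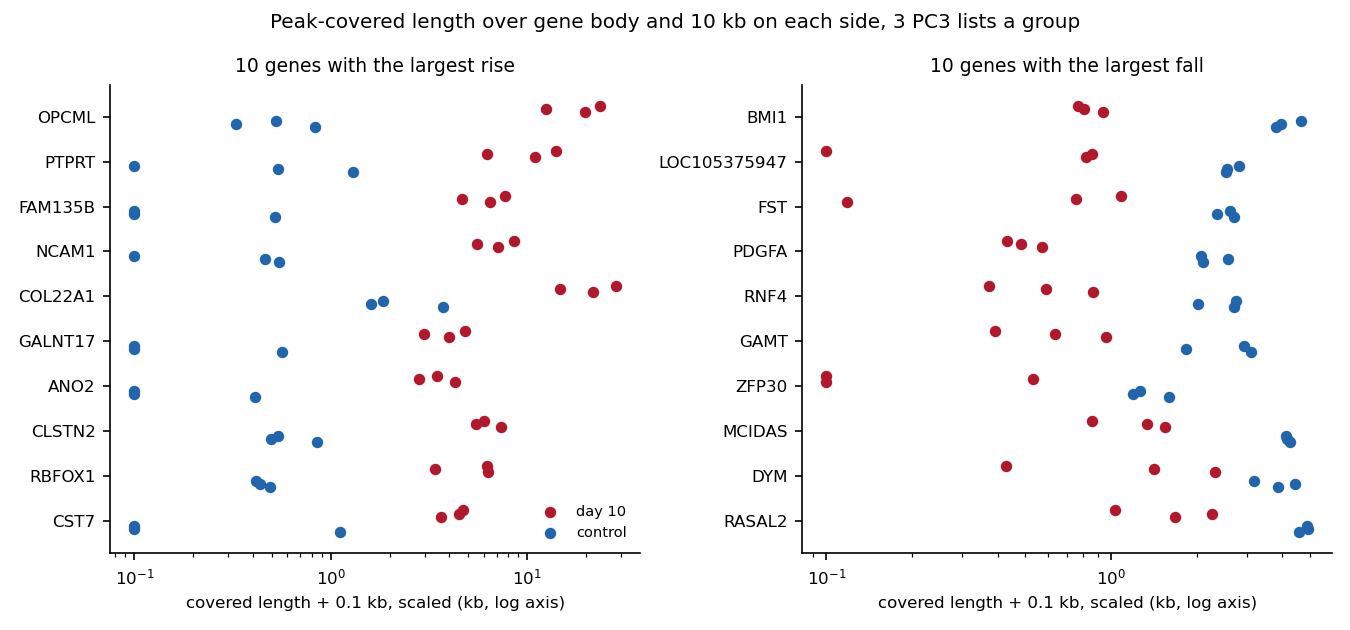
Scaled length under peaks, in kb plus 0.1 kb on a log axis, of the 10 genes with the largest rises (left) and the 10 with the largest falls (right). Each point is 1 list, with day 10 survivors in red and untreated cells in blue. OPCML has 12.3 to 23.3 kb at day 10 and at most 0.731 kb in untreated cells, while BMI1 has at most 0.841 kb at day 10 and at least 3.70 kb in untreated cells.

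Gene lists were then described by counts and medians, beside 11.8% of all genes higher, 33.1% lower and a median of -0.16. Neuronal and neuroendocrine genes rose more often than all genes, with 11 of 24 higher (45.8%) and 1 lower (median 0.28). They were not alone in this, as endothelial markers, given further below, had 50% higher. With 50000 peaks 9 of 22 neuronal and neuroendocrine genes rose and 1 fell (median 0.08). Both unscaled and under median-of-ratios scaling 13 of them rose and none fell. DPP6, a partner of potassium channels, had 7.44, 2.79 and 7.73 kb at day 10, against 0.186, 0 and 0 kb in untreated cells (3.43). It is not among the 10 largest rises above, as it did not meet their rule with 50000 peaks. KCNQ3, a potassium channel gene, had 10.9, 11.1 and 15.4 kb at day 10, against 4.36, 3.10 and 3.08 kb in untreated cells (1.69). DLGAP1, a postsynaptic scaffold gene, had 34.0, 32.6 and 31.9 kb at day 10, against 18.6, 20.8 and 21.2 kb in untreated cells (0.69). The classical neuroendocrine genes CHGA and NEUROD1 had too little covered length to be tested. The members that rose are mostly long genes of channels and adhesion.

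Inflammatory genes of the NF-kB pathway had 6 of 24 higher and 3 lower (median 0.16, and 0.19 with 50000 peaks). CCL2, a monocyte chemokine gene, had 1.31, 1.04 and 1.25 kb at day 10 and 0 in the 3 control lists and the 3 day 1 lists. It had no length under the 50000 highest peaks, so it was not tested there. NFKBIZ, a nuclear cofactor of NF-kB, had 7.97, 7.23 and 8.51 kb at day 10, against 4.06, 5.05 and 4.49 kb in untreated cells (0.74). NFKBIA, the inhibitor IkB-alpha, rose by 0.58. RELB, a subunit of NF-kB, had 1.85, 1.70 and 1.69 kb at day 10, against 2.72, 2.63 and 2.90 kb in untreated cells (-0.53) and fell. That fall did not pass with 50000 peaks per list. Of 20 secreted matrix and remodelling genes 2 rose, IGFBP7 (0.71) and SPP1 (0.57), and 2 fell, among them FN1 (-0.35). The SPP1 groups overlapped, and that gene was not tested with 50000 peaks.

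Interferon and nucleic acid sensing genes moved in both directions, with 6 of 22 higher (27.3%) and 5 lower (22.7%, median 0.07). The other settings had more rises than falls. They gave 4 higher and 2 lower of 21 with 50000 peaks. Both unscaled and under median-of-ratios scaling 9 were higher and 2 lower. IFIT2, an interferon-induced inhibitor of translation, had 1.52, 1.90 and 2.09 kb at day 10, against 1.08, 0.892 and 0.884 kb in untreated cells (0.68). IRF1, an interferon response factor, rose by 0.40. CGAS, the sensor of cytosolic DNA, had 1.29, 1.54 and 1.48 kb at day 10, against 2.24, 2.83 and 3.02 kb in untreated cells (-0.72). IFIH1, the RNA sensor MDA5, fell by 0.54. The fall of CGAS passed with 50000 peaks per list, whereas the changes of IFIT2 and IFIH1 did not.

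Chromatin and nuclear lamina genes had the highest share of falls with whole lists, though not with 50000 peaks, where growth factor and repair genes had higher shares. Of 31 tested 18 fell and 2 rose (median -0.44), 10 fell and 3 rose with 50000 peaks (median -0.12), 9 fell and 2 rose with no scaling, and 16 fell and 5 rose with median-of-ratios scaling. SUZ12, a core subunit of Polycomb repressive complex 2, had 2.16, 1.84 and 1.55 kb at day 10, against 3.08, 3.47 and 3.21 kb in untreated cells (-0.68, and -2.63 with 50000 peaks). The other core subunits of that complex, named after their values were seen, fell too, EZH2 by 0.81 and EED by 0.72. EED did not pass with 50000 peaks. TMPO, a lamin-binding protein gene, had 0.812, 1.12 and 0.794 kb at day 10, against 1.92, 1.85 and 2.10 kb in untreated cells (-0.81). The B-type lamin genes LMNB2 and LMNB1, also picked with values known, fell by 0.89 and 0.45, and LMNB1 failed to pass with 50000 peaks and with no scaling. SMARCA2, an ATPase of the SWI/SNF complex, fell by 0.52 but failed in the same 2 settings. Relative to arm medians the list had a median of -0.23.

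Genes of crosslink and recombination repair had 13 of 24 lower and none higher (median -0.30). Lower genes numbered 8 with 50000 peaks per list, 4 unscaled and 7 under median-of-ratios scaling, and none was higher in any of these. BRCA1, a recombination gene, had 2.08, 2.52 and 2.91 kb at day 10, against 4.05, 3.79 and 4.33 kb in untreated cells (-0.61). FANCL, the ubiquitin ligase of the Fanconi pathway, had 0.773, 0.749 and 0.506 kb at day 10, against 1.33, 1.35 and 1.40 kb in untreated cells (-0.67). SLX4, a nuclease scaffold, fell by 0.66 and ERCC1, a nuclease subunit of excision repair, by 0.42. The first 3 passed in all 4 settings, and ERCC1 did not pass with no scaling.

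Cell cycle and mitosis genes gave a count that rested on the scaling. Of 27 tested 15 fell and none rose (median -0.28), but with no scaling 1 fell and 1 rose, and with median-of-ratios scaling 3 fell and 2 rose. E2F8, a repressor of the E2F family, fell in all 4 settings. It had 1.60, 2.08 and 1.63 kb at day 10, against 3.55, 3.71 and 3.67 kb in untreated cells (-0.87). ECT2, which drives cytokinesis, fell by 0.61, AURKA, the mitotic kinase Aurora A, by 0.40 and CCNB1, cyclin B1, by 0.35. These 3 did not pass with no scaling, nor AURKA and CCNB1 with 50000 peaks. Housekeeping genes, a control list, had 6 of 15 lower and none higher (median -0.21, and 0.00 with no scaling). Among them ACTB, beta-actin, had 3.21, 2.68 and 2.31 kb at day 10, against 6.33, 5.86 and 5.43 kb in untreated cells (-0.99), a fall that did not pass with 50000 peaks. SDHA fell by 0.67 and TBP by 0.53, and both passed in all 4 settings.

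Targets of p53 had 2 of 24 higher and 5 lower (median -0.10, and 0.12 with no scaling). GDF15, a stress-induced cytokine gene, had 4.72, 4.59 and 5.20 kb at day 10, against 2.22, 2.67 and 1.90 kb in untreated cells (0.96). XPC, the damage sensor of excision repair, had 4.83, 4.48 and 6.49 kb at day 10, against 2.79, 2.76 and 2.99 kb in untreated cells (0.77). MDM2, the p53 ubiquitin ligase, fell by 0.51 and BBC3, the pro-apoptotic PUMA, by 0.32, and neither passed with no scaling. XPC and MDM2 did not pass with 50000 peaks. Apoptosis and survival genes had 3 of 21 higher and 5 lower (median -0.20, and 0.01 with no scaling). BCL2L1, which encodes the anti-apoptotic BCL-xL on 20q, had 20.2, 22.8 and 25.4 kb at day 10, against 13.3, 15.9 and 14.6 kb in untreated cells (0.63, and 0.53 relative to its arm). HRK, a pro-apoptotic gene, rose by 0.31. APAF1, the apoptosome scaffold, fell by 0.53 and BIK by 0.50, and neither passed with no scaling, nor BIK with 50000 peaks.

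Antioxidant genes of the NRF2 pathway had 9 of 23 lower and none higher (median -0.17, and 0.05 with no scaling, where 3 were lower). With 50000 peaks per list 6 were lower and 3 higher. The 3 lower with no scaling are the next 3 named. GPX4, which reduces lipid peroxides, had 3.50, 3.34 and 2.81 kb at day 10, against 5.64, 5.21 and 6.15 kb in untreated cells (-0.73). NFE2L2, which encodes NRF2 itself, had 2.07, 2.10 and 1.70 kb at day 10, against 3.05, 3.17 and 3.44 kb in untreated cells (-0.60). SLC7A11, the cystine transporter that feeds glutathione synthesis, fell by 0.61. GCLM, a subunit of the enzyme that limits glutathione synthesis, fell by 0.46 but did not pass with no scaling.

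Growth factors and receptors had 12 of 28 lower and 2 higher (median -0.24), and 11 lower and 2 higher with 50000 peaks. Beside PDGFA and FST, FGF2, a fibroblast growth factor gene, had 0.225, 0.445 and 0.232 kb at day 10, against 1.84, 1.71 and 1.73 kb in untreated cells (-1.51). With 50000 peaks its change was -0.40 and did not pass. EREG, a ligand of the EGF receptor, had 1.55, 1.02 and 0.923 kb at day 10, against 2.59, 2.27 and 2.91 kb in untreated cells (-0.91). Of 16 drug and metal transport genes 6 fell (37.5%, against 33.1% of all genes) and 3 rose (median -0.21). The count rested on the scaling, with 4 higher and 1 lower unscaled. Median-of-ratios scaling gave 4 higher and 2 lower, and 50000 peaks per list 1 higher and 4 lower. The members named next all fell. SLC22A3, an organic cation transporter, had 2.38, 2.65 and 3.16 kb at day 10, against 5.21, 4.65 and 5.12 kb in untreated cells (-0.77). SLC31A1, the copper transporter CTR1 known for cisplatin uptake, fell by 0.60, LRRC8A, a subunit of the volume-regulated anion channel that can carry platinum drugs, by 0.25 and ABCC4 by 0.34. None of these 3 passed with no scaling, and of them only ABCC4 passed with 50000 peaks.

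Identity genes moved in both directions. Of 21 epithelial genes 3 rose and 6 fell (median -0.12, and 0.07 with no scaling). KRT18 had 5.35, 4.89 and 4.63 kb at day 10, against 2.91, 2.38 and 3.20 kb in untreated cells (0.72), and KRT7 rose by 0.44. CDH1, E-cadherin, had 6.70, 7.72 and 7.59 kb at day 10, against 10.5, 10.4 and 9.96 kb in untreated cells (-0.47), and ESRP2 fell by 0.36. Of 20 mesenchymal genes 1 rose, TGFBI (0.29), and 5 fell (median -0.12, and 0.10 with no scaling). CDH2, N-cadherin, on 18q, fell by 0.56 but had -0.09 relative to its arm, and ZEB1 fell by 0.47. The falls of CDH1, ESRP2, CDH2, FN1 and ZEB1 did not pass with no scaling, nor those of ESRP2 and ZEB1 with 50000 peaks. Of 18 prostate and androgen response genes 3 rose and 5 fell (median -0.19, and 0.01 with no scaling). TMPRSS2, an androgen-regulated protease gene, had 4.08, 5.15 and 4.62 kb at day 10, against 2.68, 3.21 and 2.73 kb in untreated cells (0.60). KLK2 rose by 1.27 and was not tested with 50000 peaks, and FOXA1, a pioneer factor of luminal cells, fell by 0.33, which did not pass with 50000 peaks or no scaling.

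Genes of transcriptional responses showed few rises. Of 23 immediate early genes of the AP-1 group 1 rose and 6 fell (median -0.19, and 0.06 with 50000 peaks, where 4 rose and 2 fell). FOSB fell by 0.45, JUND by 0.41, KLF4 by 0.39 and MAFF by 0.44, and none of these 4 passed with 50000 peaks or with no scaling. The AP-1 letters were nonetheless in a larger share of gained promoters than of all promoters, as given above. Of 20 YAP and TEAD targets 2 rose and 4 fell (median -0.15, and 0.01 with 50000 peaks). NUAK2, a kinase gene, had 7.02, 7.74 and 7.81 kb at day 10, against 5.78, 4.87 and 5.31 kb in untreated cells (0.46), and AMOTL2 rose by 0.44. LATS2, a Hippo kinase gene, fell by 0.58 and TEAD1 by 0.42, the second of which did not pass with no scaling. Of 21 hypoxia genes 1 rose, NDRG1 (0.55), and 11 fell, such as ADM (-0.50), PDK1 (-0.42) and CA9 (-0.38), but with no scaling 4 rose and none fell. ADM and CA9 did not pass with 50000 peaks either. With 2 kb on each side in place of 10 kb CA9 had a change of -0.07, which did not pass.

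Markers of other cell types rose too. Of 12 endothelial markers 6 rose and 1 fell (median 0.29). With 50000 peaks 3 of 9 rose and none fell (median 0.33). With whole lists all 12 had covered length in both groups. Their summed length ran from 59.1 to 64.8 kb at day 10, against 52.0 to 54.6 kb in untreated cells. KDR, a VEGF receptor, had 2.77, 2.42 and 2.70 kb at day 10, against 0.829, 1.56 and 1.60 kb in untreated cells (0.80), FLT1, another VEGF receptor, rose by 0.91 and TEK by 0.37, while CDH5 fell by 0.34. Of 16 haematopoietic markers tested 4 rose and 3 fell (median 0.03), and 6 of 15 rose and 2 fell with 50000 peaks (median 0.10). The summed length of the haematopoietic list ran from 35.7 to 46.2 kb at day 10, against 32.5 to 37.8 kb in untreated cells. CD3D had 0.794, 0.769 and 0.893 kb at day 10 and MS4A1 0.494, 0.426 and 0.425 kb, and both had 0 in the 3 control lists. ITGAM rose by 0.96. With 50000 peaks TEK and CDH5 did not pass, nor CDH5 with no scaling. FLT1 and CD3D had no length under the 50000 highest peaks and were not tested there, and 9 of the 12 endothelial markers were. The leukocyte marker PTPRC had 0 at day 10, as given above. The part of other cells in these rises was not tested.

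**Figure D5:**
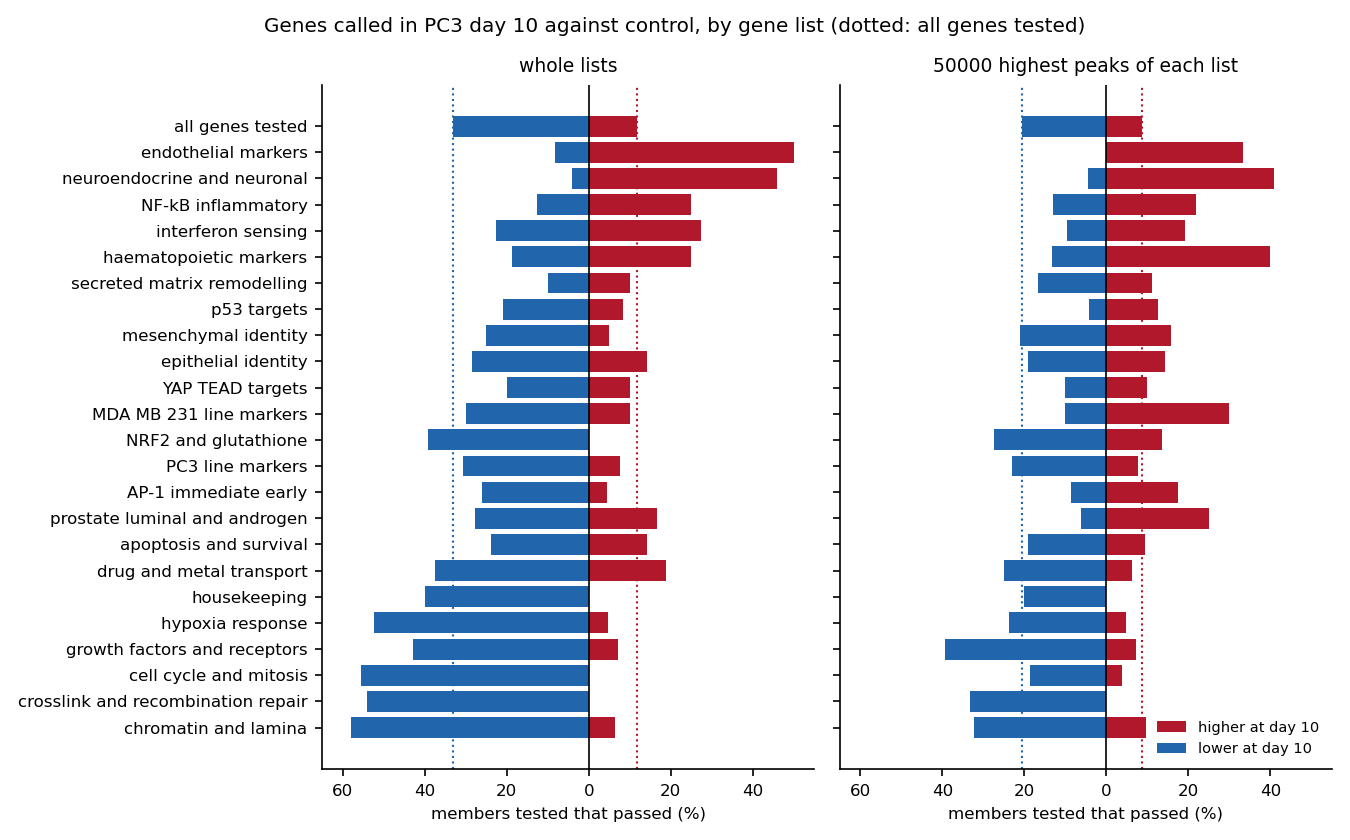
Shares in percent of each list's tested members that were higher (red, to the right) or lower (blue, to the left) at day 10 against untreated PC3, with whole lists and with 50000 peaks per list; dotted lines give the shares over all genes tested. Dotted lines for whole lists stand at 11.8% higher and 33.1% lower, and the chromatin and lamina list has 18 of 31 members lower.

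Set against MDA-MB-231 at the same time, the changes of PC3 differed for many genes. The difference between the 2 changes, tested in the same limma fit, was positive for 978 genes (5.82%) and negative for 1787 (10.6%). The counts were 665 and 1541 with 50000 peaks per list. OPCML rose by 4.28 in PC3, against 1.29 in MDA-MB-231, and FAM135B by 3.42 against 0.65. FGF2 had -1.51 in PC3, against 0.19 in MDA-MB-231, and BMI1 -1.87 against -0.49. BCL2L1 had 0.63 in PC3, against -0.26 in MDA-MB-231, KRT18 0.72 against -0.34, KRT7 0.44 against -0.60, and GDF15 0.96 against -0.05. The differences of FGF2 and GDF15 did not pass with 50000 peaks. CCL2 had 1.76 in PC3 and 1.49 in MDA-MB-231. CYP4F11, with 1.21, 0.963 and 0.982 kb at day 10 and 0 in the 3 control lists of PC3, had 1.63 in PC3 and 1.70 in MDA-MB-231. Changes against lists at 0 depend on the 500 bp added. Of the regions gained in PC3 13.3% had a peak in all 3 day 10 lists and in no control list of MDA-MB-231, and of the strictly gained ones 25.0% did, against 5.82% of all regions. At the level of lists both lines had more peaks at day 10, with log2 differences of 0.42 in PC3 and 0.39 in MDA-MB-231, while covered length differed by 0.25 and -0.01.

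Promoter calls and gene windows did not always move together. PDZK1IP1 had 4.44, 5.89 and 6.32 kb at day 10, against 2.91, 2.79 and 2.79 kb in untreated cells, and rose by 0.85. LGALS9, a galectin gene, rose by 0.70 and FRMPD1 by 0.42, and neither passed with 50000 peaks. FCRLA (0.21, adjusted p = 0.078), GCKR (0.07, adjusted p = 0.74) and FSCN3 (-0.18, adjusted p = 0.35) did not pass, although their promoters were strictly gained. AMD1 had 3.84, 3.58 and 3.30 kb at day 10, against 5.69, 5.05 and 5.91 kb in untreated cells (-0.57). ACP4, an acid phosphatase gene, fell by 0.82. RTN4, which encodes the neurite outgrowth inhibitor Nogo, fell by 0.50, which did not pass with no scaling. The promoters of AMD1, ACP4 and RTN4 were strictly lost. That of MAX was strictly lost too, yet its gene window went the other way, with a change of 0.20. Day 10 peaks lay 209, 156 and 158 bp from the MAX promoter window. Windows of genes at strict regions hold those regions, so their direction is partly set by the choice of genes. CAMK1G and PABPC1L rose by 0.94 each, UBALD2 by 0.72, QRICH2 by 0.58 and WNT9A by 0.48. THOC7 had 0.923, 0.908 and 0.907 kb at day 10, against 2.46, 2.43 and 2.43 kb in untreated cells (-1.06). GATD1 fell by 0.82, SLC39A10, a zinc transporter gene, by 0.81, ZNF747 by 0.69, KRT10 by 0.68 and ATXN7 by 0.56. The falls of SLC39A10 and ZNF747 did not pass with 50000 peaks. DNAH7, at the same strictly lost region as SLC39A10, had 2.48, 2.60 and 1.89 kb at day 10, against 3.32, 4.92 and 2.25 kb in untreated cells. Its groups overlapped, and its change of -0.46 did not pass with whole lists (limma adjusted p = 0.057).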

How the data were processed

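Bulk ATAC-seq of PC3 and MDA-MB-231 was deposited as 18 peak lists in narrowPeak layout without headers, 1 per biological replicate. Per the submitters' processing notes, Genrich 0.6.2 and Bowtie2 2.3.5.1 were among the tools, with SAMtools 1.6, Picard, FastQC 0.12.1 and R 4.4.1. The builds named there are GRCh38 and hg38. No source used here tells how the 3 experimental replicates of a list were combined. The deposited column 7 is a score per peak, the authors' value, with a lowest value of 200, and served only for ranks inside 1 list. Without read counts in the lists the depth cannot be given.

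Lists were matched to groups by their names, which give line, state and replicate. Regions are merged peaks of the 9 PC3 lists, and an overlap of 1 bp counted as presence. Gene positions came from RefSeq (GRCh38.p14, 19974 protein-coding genes), and promoter sequences from a RefSeq table of the same build. Covered length per gene window was kept where at least 3 lists had 500 bp, and limma was run on log2(length + 500 bp), in version 3.58.1 (R 4.3.3), over the 6 groups of 3 lists, with a trend in the variance and 12 residual degrees of freedom. Interval code and fit were tested on simulated data. Python 3.11.15, numpy 2.4.6 and pandas 2.3.3 did the rest.

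The comparison and the gene lists were chosen with earlier results of these data known. Named genes are the largest rises and falls called with whole lists and with 50000 peaks, up to 4 called members of each list by p, and genes at the widest strict regions and the best-ranked strict promoters, of which the text gives a selection; others are said to be picked with values known. Alternatives were 50000, 30000 and 100000 peaks, the upper 50% of each list, other overlap, merging, scaling, pseudocount, filter and window, only 6 lists in the fit, a replicate block and each list left out.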

Additional observations from a re-analysis of the deposited data

Results flagged for a closer look

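Of 127 named genes 65 had a day 10 change in PC3 that differed from that in MDA-MB-231. The difference itself was tested in the limma fit over both lines, with adjusted p from 4.3e-06 to 0.05. In 18 of them the changes had opposite signs. The MDA-MB-231 change was very small in some of these, with 0.004 for E2F8 and 0.03 for LOC105375947 and AMD1, while AMOTL2 had -0.19. Values given below are the PC3 change minus the MDA-MB-231 change on the log2 scale, with whole lists. With 50000 peaks per list 28 of the 65 differences did not pass. Of these 9 were positive, those of ANO2, RBFOX1, CST7, GDF15, XPC, NDRG1, CAMK1G, AMOTL2 and PABPC1L, and that of ANO2 was 0.07 there. The other 19 were negative, those of PDGFA, FGF2, EREG, BRCA1, SMARCA2, THOC7, GATD1, ATXN7, GPX4, IFIH1, RELB, JUND, FOSB, ITGAM, SLC22A3, ACTB, LATS2, ZEB1 and FN1, and that of ITGAM turned to 0.13.

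The difference was positive for 28 genes. Long genes led with 2.99 for OPCML, 2.77 for FAM135B, 2.33 for GALNT17, 1.55 for RBFOX1, 1.53 for CDH13 and PTPRT, 1.46 for NTM, 1.41 for DAB1, 1.40 for ANO2 and COL22A1, 0.90 for KCNQ3 and 0.41 for DLGAP1. Among secreted and stress genes it was 1.06 for IGFBP7, 1.01 for GDF15, 0.96 for XPC, 0.70 for NFKBIZ, 0.68 for TGFBI and 0.54 for NDRG1. For the keratin genes KRT18 and KRT7 it was 1.06 and 1.04, and for BCL2L1 0.89. Genes beside strictly gained regions had 0.87 for CAMK1G and UBALD2, 0.73 for QRICH2, 0.63 for AMOTL2 and 0.54 for PABPC1L. The others were 2.14 for CST7 and 0.46 for NUAK2.

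The difference was negative for 37 genes. Among the largest falls it was -1.76 for LOC105375947, -1.40 for FST and MCIDAS, -1.39 for BMI1, -1.38 for ZFP30, -1.29 for RNF4, -1.28 for RASAL2, -1.25 for DYM, -1.17 for GAMT and -1.14 for PDGFA. Other growth factor genes had -1.70 for FGF2 and -0.66 for EREG. Chromatin, lamina and division genes had -0.88 for E2F8, -0.62 for TMPO, -0.44 for SUZ12, -0.41 for BRCA1 and -0.33 for SMARCA2. Genes at strictly lost sites had -0.98 for THOC7, -0.68 for KRT10, -0.60 for AMD1, -0.53 for GATD1 and -0.51 for ATXN7. Stress and sensing genes had -0.63 for NFE2L2, -0.62 for GPX4, -0.53 for CGAS, -0.50 for IFIH1, -0.41 for RELB and JUND and -0.40 for FOSB. The remaining values were -0.90 for ITGAM, -0.81 for CDH2, -0.70 for SLC22A3, -0.69 for ACTB, -0.57 for LATS2, -0.51 for ZEB1, -0.42 for TBP and -0.34 for FN1.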

How the results depend on the processing

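The counts of regions moved most. The upper 50% of each list gave 10175 gained and 1452 lost regions, and 3443 and 867 under the strict call. Asking that peaks cover at least 50% of a region gave 1608 and 683 under the strict call. The 50000 highest peaks gave 4199 gained and 4221 lost, and 100000 peaks, chosen after seeing the data, gave 8704 and 8191, with 243 strictly lost. Without 1 list, gained regions ran from 21972 to 30275, lost from 2772 to 4334 and strictly lost from 23 to 89. Covered length differed by -0.073 log2 with 50000 peaks, and median width by 10.8 bp without day 10 replicate 1 (from -69.2 to 10.8 over the lists left out). With 50000 peaks the number of peaks is equal by construction. Of the counts of genes, 3423 were higher with median-of-ratios scaling, while the lower ones numbered 2518 under that scaling, 1188 unscaled and 3299 with 50000 peaks. In these counts the cause was not tested. Leaving out 1 list gave from 1620 to 1899 higher and from 4341 to 5249 lower. Of 1771 values of 127 named genes, 1672 kept direction and side of the threshold, 83 lost the call, 14 passed newly and 2 reversed, both of FSCN3 (0.037 with no scaling and 0.80 with 2 kb on each side). Among those that lost the call, 30 did so with 50000 peaks and 30 with no scaling. ABCC4 lost it without day 10 replicate 3 or control replicate 2, and QRICH2 without day 10 replicate 3.

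Deviations of same-numbered day 10 and control lists from their group means correlated at 0.03, 0.25 and 0.03 over genes. Pairs with different numbers ran from -0.29 to 0.20. Deviations from a mean of 3 lists are not independent, so these values cannot decide whether replicate numbers pair the lists. With a replicate block in the fit 2247 genes were higher and 6136 lower, and 1605 and 3619 with 50000 peaks. Depth is unknown, so a site absent from a list may lie under its threshold.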
